A study of Mus musculus with 4 samples.

Results

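The 9 genes described here take up retinol, or make, bind or read retinoic acid, or are close in sequence to such a gene. Among them are the retinol uptake receptor Stra6 and the aldehyde dehydrogenases Aldh1a1, Aldh1a2, Aldh1a3 and Aldh1a7, the last a relative of Aldh1a1. The others are the binding proteins Crabp1 and Crabp2 and the nuclear receptors Rara and Rarg. All 9 genes were grouped by function. The group was put together with the large differences of Aldh1a3 on these arrays already known, so their values are given as a description and carry no test. They were read by 10 probes, 1 per gene and 2 for Rarg, and were 9 of 16862 genes that could be named through a RefSeq accession and read on all 4 arrays. The arrays profiled RNA of mouse skin taken 48 h after photodynamic treatment. There, methyl aminolevulinate cream loads the tissue with a light-absorbing porphyrin, and red light then makes a burst of reactive oxygen species. The tail treated group received the cream and, after 2.5 h in darkness, 10 J/cm2 of light at 636 nm. The tail control group had no treatment. The back treated group was shaved and received the same cream, 2.5 h in darkness and the same wavelength with 2.5 J/cm2, and the back control group had no treatment. The light doses of the sites differ, and the labels do not say whether the control backs were shaved. Strain, sex and age are not given in the sources used here.

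Each group was 1 one-colour array of 1 slide, and the study design gives 3 animals per group without saying whether their RNA was pooled. There were no replicates, so the spread between animals is unknown, and no difference was tested. Position on the slide and group cannot be told apart. Intervals below are 95% intervals from the scanner's error per spot and cover the spot only. Levels are log2 signals relative to the 75th percentile of the same array, and the calls below start at 2-fold either way, which is 1 on this scale. The 75th percentile was 909 and 7261 signal units on the tail treated and tail control arrays, and 1204 and 1860 on the back treated and back control arrays. Between 13347 and 14941 of the 16862 genes were well above background on an array, and 330 to 1668 were saturated, most of them on the tail control array. All 8 basal and all 8 suprabasal keratinocyte markers on the array, among them Krt5, Krt14, Krt1 and Krt10, were well above background in every group. The tail samples are labelled as skin, but their RNA extraction is described for epidermis. In whole tissue, fewer cells of a type and less RNA per cell cannot be told apart.

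Retinoic acid is made from vitamin A in sequential oxidations. Cells take up retinol, in some tissues through Stra6, and alcohol dehydrogenases and short-chain dehydrogenases turn it into retinal. The aldehyde dehydrogenases Aldh1a1, Aldh1a2 and Aldh1a3 then oxidise retinal to retinoic acid. Aldh1a7 is a rodent gene close in sequence to Aldh1a1. Crabp2 carries retinoic acid to the nucleus, whereas Crabp1 binds it in the cytoplasm. In the nucleus retinoic acid activates its receptors, which bind DNA as pairs with retinoid X receptors, and enzymes of the Cyp26 family break it down. In skin, retinoic acid acts on keratinocyte growth and differentiation, hair follicles and sebaceous glands, and Rarg and Rxra are the main receptors of the epidermis.

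Promoters of 2 genes outside the group are shown first because they are the classic readout of this pathway and hold its binding element. Retinoic acid receptors can bind a pair of short units in direct repeat, set 5 bases apart. RefSeq promoters of build GRCm38.p6, from 250 bases before to 50 after a gene's start, were searched on both strands. The units searched were AGGTCA (in 16.3% of all promoters), AGTTCA (in 14.0%), GGGTCA (in 13.7%) and GGTTCA (in 10.4%). A direct repeat of any of them with that spacing was found in 32 of 32851 promoters, or 0.0974%. Of 96 promoters of the other retinoid genes listed here, those of Rarb and Cyp26a1 held it, with the units in capitals below. None of the 15 promoters listed for the 9 genes held it, which says only that these letters are not in those windows. Repeats with spacings of 1 and 2 bases were also searched and were found in 73 and 88 of all promoters. None of these was a promoter of the 9 genes, and among the other retinoid genes only Bco1 held one, with a spacing of 1. Aldh1a3 and Crabp2 had no entry.
Rarb, chr14:16575427-16575726, minus strand: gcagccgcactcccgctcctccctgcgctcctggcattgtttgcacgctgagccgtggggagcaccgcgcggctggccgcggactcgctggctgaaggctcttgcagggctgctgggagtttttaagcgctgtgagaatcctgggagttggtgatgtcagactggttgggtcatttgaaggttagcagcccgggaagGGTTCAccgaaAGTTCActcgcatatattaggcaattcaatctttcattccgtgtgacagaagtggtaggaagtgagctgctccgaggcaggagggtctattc
Cyp26a1, chr19:37697558-37697857, plus strand: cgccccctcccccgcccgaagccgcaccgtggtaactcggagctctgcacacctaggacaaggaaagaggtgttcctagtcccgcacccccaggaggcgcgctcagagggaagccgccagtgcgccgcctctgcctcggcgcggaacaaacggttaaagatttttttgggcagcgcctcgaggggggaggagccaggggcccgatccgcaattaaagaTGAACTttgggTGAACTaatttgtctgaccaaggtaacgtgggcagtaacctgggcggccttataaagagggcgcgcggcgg
In Rarb the repeat lay in the strand of the gene and began 53 bases before its start. In Cyp26a1 it lay in the opposite strand and its leftmost base was 32 bases before the start. Both genes were dim on these arrays, and their values are given with the other retinoic acid responsive genes.

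The promoters of Aldh1a7 and Aldh1a1 are shown because these genes, both on chromosome 19, are alike in sequence and had different values in the back. In an end-to-end alignment, 72.4% of positions were identical between the Aldh1a7 promoter and that of the second listed start of Aldh1a1. At the first listed start of Aldh1a1 the share was 53.9%. The capitals mark the unit GGGTCA as read on the opposite strand, which is present in 13.7% of all promoters. It began 49 bases before the start in both.
Aldh1a7, chr19:20727507-20727806, minus strand: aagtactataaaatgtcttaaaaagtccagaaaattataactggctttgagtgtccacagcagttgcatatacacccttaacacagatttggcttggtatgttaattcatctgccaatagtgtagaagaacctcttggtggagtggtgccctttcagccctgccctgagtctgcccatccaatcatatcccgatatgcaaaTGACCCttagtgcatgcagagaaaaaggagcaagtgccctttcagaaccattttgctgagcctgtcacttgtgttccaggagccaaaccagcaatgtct
Aldh1a1, chr19:20601718-20602017, plus strand: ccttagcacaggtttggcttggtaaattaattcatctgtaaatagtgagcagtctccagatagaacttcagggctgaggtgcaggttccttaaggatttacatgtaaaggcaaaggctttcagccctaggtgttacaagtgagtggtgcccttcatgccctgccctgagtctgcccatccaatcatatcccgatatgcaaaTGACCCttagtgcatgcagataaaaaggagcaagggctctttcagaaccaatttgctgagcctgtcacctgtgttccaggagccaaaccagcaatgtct
The deposited array files hold no probe sequences, so whether a probe of one gene also binds transcripts of the other was not tested.

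The first comparison asked how these genes differed in the tail after treatment. Of the 8 genes with a value, Stra6, Aldh1a1, Aldh1a2 and Aldh1a3 were higher on the tail treated array by 2-fold or more and none was lower. Among all 12852 genes with a value in this comparison, 27.2% were higher and 6.55% lower, 33.7% in all. The median difference was 0.96 for the 8 genes and 0.33 for all genes. Aldh1a3 was 19.5-fold higher, and Crabp2, Rara and Rarg differed by less than 2-fold. In the back, Aldh1a3 and Crabp1 were higher and Aldh1a2 and Aldh1a7 lower, out of 9 genes with a value. Among all 13457 genes with a value in the back, 13.6% were higher and 12.6% lower, 26.2% in all, so the count of 2 each way over 9 genes was little above the background. The median was -0.06 for the 9 genes and -0.01 for all genes.

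**Figure D1:**
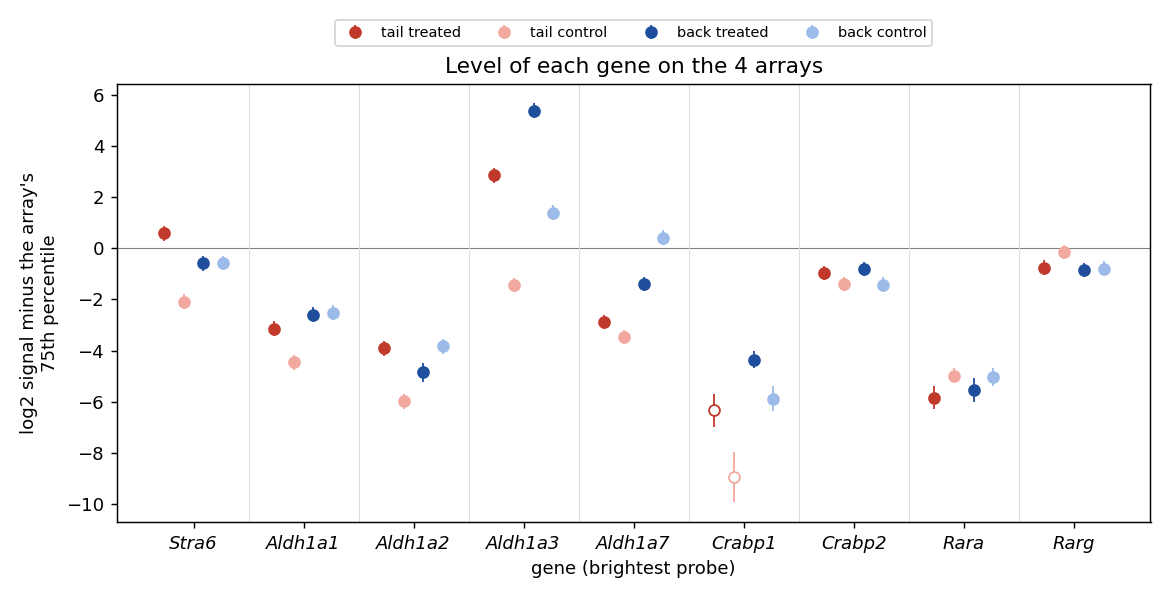
Level of each of the 9 genes on the 4 arrays, as log2 signal minus the array's 75th percentile, 1 point per array with the 95% interval of the scanner error. Open circles are not well above background. Aldh1a3 spans the widest range, with 5.37 on the back treated array and -1.44 on the tail control array. Levels are to be compared within a gene only.

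Stra6, the receptor that takes retinol from its carrier in blood, stood at 0.58 on the tail treated array, against -2.08 on the tail control array. In the back it stood at -0.59 in treated and -0.57 in control skin. The tail difference was 2.66 (2.26 to 3.06), or 6.34-fold, and the back difference was -0.01 (-0.41 to 0.39). The tail treated array thus held the highest level and the tail control array the lowest, with both back arrays between them and apart by less than the scanner error. Before scaling its tail signals were 1358 in treated and 1712 in control skin, so the higher value rests on the scaling for the brightness of the tail control array. With spike-in scaling the tail difference was 0.60, which is under 2-fold.

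Aldh1a3, the retinal dehydrogenase with the largest differences of the group, had levels of 2.85 on the tail treated array and -1.44 on the tail control array. In the back its levels were 5.37 in treated and 1.39 in control skin. The tail difference was 4.29 (3.89 to 4.69) and the back difference 3.98 (3.58 to 4.38), which is 19.5-fold and 15.8-fold. Both treated arrays were above both control arrays. All 3 steps in the order from back treated through tail treated and back control to tail control exceeded the scanner error, at 2.53, 1.46 and 2.83. Of all genes with a value, 29 had a larger difference in the tail and 40 in the back. Ranked by the smaller of both differences over the 11271 genes measured on all 4 arrays, Aldh1a3 stood at rank 2. Gsta4, a glutathione transferase, was at rank 1 with 4.25 and 4.56, and the platelet chemokine Pf4, named after its values were seen, at rank 3 with 3.44 and 4.66.

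Aldh1a3 was also brighter before any scaling. Its processed signal was 6540 in treated and 2675 in control tail, a ratio of 2.44, although the 75th percentile was 7.99 times as high on the tail control array. Of 12478 genes measured on both tail arrays, 112 (0.898%) were brighter on the treated one, and Aldh1a3 was the only one of the 8 measured genes of the group among them. In the back the signals were 49954 in treated and 4881 in control skin, a ratio of 10.2. There 23.8% of 12470 genes were brighter in treated skin, and of the 9 genes Aldh1a3 and Crabp1 were. The median pixel value of the Aldh1a3 spot on the back treated array was 54845, under the scanner's saturation value of 65525, and the spot was not marked as saturated. Over all settings tried, Aldh1a3 was higher by 1.29 to 4.29 in the tail and by 3.36 to 4.00 in the back.

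Aldh1a1, a retinal dehydrogenase of many adult epithelia, stood at -3.13 in treated and -4.46 in control tail. Its back levels were -2.59 in treated and -2.51 in control skin. The tail difference was 1.32 (0.92 to 1.73), and 0.97 after cyclic loess, which is under 2-fold. The back difference was -0.08 (-0.49 to 0.32). Before scaling the tail signals were 104 in treated and 331 in control skin, and with spike-in scaling the tail difference turned to -0.74.

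Aldh1a2, the main retinal dehydrogenase of the embryo, had levels of -3.91 in treated and -5.98 in control tail, and of -4.84 in treated and -3.82 in control back. The tail difference was 2.07 (1.64 to 2.50) and the back difference -1.01 (-1.49 to -0.54), so with this scaling it was the one gene of the group called in opposite directions. The tail value was 0.0087 with spike-in scaling and 4.31 after normexp background correction. The back value lay just past 2-fold. It was -0.92 after cyclic loess and -0.31 after normexp background correction, both within 2-fold. Signals were low throughout, at 60.6 and 115 in treated and control tail and 42.1 and 131 in treated and control back. The lowest signal well above background on these arrays was 10.3 to 22.3.

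Aldh1a7 had levels of -2.88 in treated and -3.47 in control tail, and of -1.39 in treated and 0.41 in control back. In the back it was 3.49-fold lower, with a difference of -1.80 (-2.20 to -1.40). The tail difference was 0.60 (0.19 to 1.00), but it was 2.45 after normexp background correction, -1.47 with spike-in scaling and -2.40 without scaling. With the 75th percentile, the back control array held the highest level and the tail control array the lowest, and all steps between the 4 arrays exceeded the scanner error. Aldh1a1, its relative, differed by -0.08 in the same pair of back arrays. The Aldh1a7 value in the back ran from -2.43 to -1.64 over the settings tried and was past 2-fold in each.

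Crabp1, the cytoplasmic retinoic acid binding protein, was not well above background on either tail array and has no value there. Its back signals were 58.9 in treated and 31.8 in control skin, close to the lowest signals well above background of 17.3 and 20.1. The back difference was 1.52 (0.92 to 2.11), or 2.86-fold. It was 1.02 after normexp background correction, 1.04 with spike-in scaling and 0.89 without scaling.

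Crabp2, which hands retinoic acid to its receptors, stood at -0.97 in treated and -1.39 in control tail, and at -0.80 in treated and -1.42 in control back. Its differences were 0.41 (0.01 to 0.81) in the tail and 0.62 (0.22 to 1.02) in the back, both under 2-fold. Treated skin was above control skin at both sites by more than the scanner error. The treated arrays differed from each other by less than that error, and so did the controls. Under spike-in scaling the tail value was -1.65.

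Rara, the receptor found in most tissues, was dim, with signals of 16.0 in treated and 230 in control tail and of 26.1 in treated and 57.3 in control back. Its differences were -0.85 (-1.39 to -0.30) and -0.51 (-1.10 to 0.09). The tail value depended on the processing, at -1.56 after cyclic loess and 3.58 after normexp background correction. No neighbouring levels in its order of arrays differed beyond the scanner error.

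Rarg, the main retinoic acid receptor of the epidermis, was read by 2 probes. The brighter probe stood at -0.76 in treated and -0.14 in control tail, and at -0.85 in treated and -0.80 in control back. The dimmer probe stood at -2.50 and -1.93 in treated and control tail, and at -2.76 and -2.69 in treated and control back. The tail differences were -0.62 (-1.02 to -0.22) and -0.57 (-0.97 to -0.17) by the brighter and the dimmer probe. The back differences were -0.06 and -0.07. Between untreated skins the probes gave -0.66 and -0.76. Both put the tail control array highest and left the other 3 arrays within the scanner error of their neighbours.

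**Figure D2:**
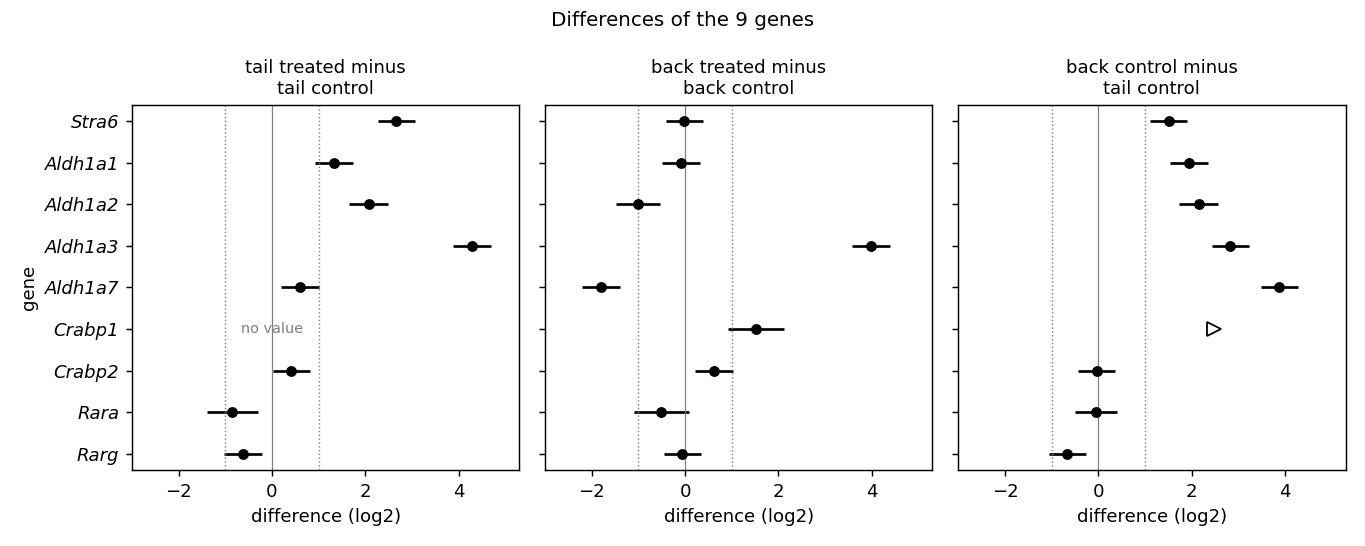
Differences of the 9 genes on the log2 scale in the tail, the back and between untreated skins, with 95% intervals of the scanner error. Dotted lines mark 2-fold. Aldh1a3 is higher in all 3 panels, at 4.29, 3.98 and 2.83. Crabp1 has no value in the tail, and its triangle between untreated skins is a lower bound.

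The untreated skins differed in the same genes. This pair shares its control arrays with the comparisons above. On the back control array, against the tail control array, 6 of the 9 genes were higher and none lower, while 27.4% of all 12791 genes with a value were higher and 17.2% lower, 44.6% in all. Aldh1a7 differed most, by 3.88, followed by Aldh1a3 at 2.83, Aldh1a2 at 2.15, Aldh1a1 at 1.94 and Stra6 at 1.51. Crabp1 was at least 5.56-fold higher after scaling. Its signals before scaling were 31.8 in back control skin and 14.9 in tail control skin, the latter not well above background. Without scaling this lower bound was 0.51 on the log2 scale, which is under 2-fold, so its size rests on the scaling. Crabp2, Rara and Rarg differed by -0.03, -0.04 and -0.66. The median was 1.94 for the 9 genes and 0.19 for all genes. The 4 genes called higher in the treated tail were thus all lower in untreated tail than in untreated back, and for them the effect of treatment and a low value particular to that 1 tail array without treatment cannot be separated. Markers of other cells also differed between the untreated skins. All 8 Langerhans and dendritic cell markers, all 6 T cell markers and all 6 macrophage markers with a value were higher on the back control array, and 8 of 10 hair follicle markers were lower. Also higher were all 3 suprabasal keratinocyte markers with a value, 3 of 4 neutrophil, 3 of 6 adipocyte and 6 of 8 fibroblast markers, with 1 fibroblast marker lower. Melanocyte markers were lower in 3 of 4 cases and dermal papilla markers in 3 of 5. The summed scaled levels in back and tail were 44.1 and 7.39 for Langerhans and dendritic cells, 3.58 and 0.731 for T cells, 2.75 and 0.391 for macrophages, and 19.5 and 65.8 for hair follicle. The hair follicle sum in the tail is capped, since Krt25, Krt27, Krt71, Krt31, Krt34 and Krt35 were saturated on the tail control array. These 6 were lower in the back by at least 18.6-fold (Krt71) to at least 97.5-fold (Krt35). Sox9 had the largest signal of the list on the back control array, 24403, and was 2.28 higher there. The part of these other cells in the values of the 9 genes was not tested.

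Set side by side, the responses of back and tail differed most for Aldh1a2, by -3.08 (back difference minus tail difference), and for Stra6 and Aldh1a7, by -2.68 and -2.40. Aldh1a1 differed by -1.40. For Aldh1a3, Crabp2, Rara and Rarg the values were -0.30, 0.21, 0.34 and 0.56. This order holds for the 75th percentile. With spike-in scaling Aldh1a2 was at -1.502, Stra6 at -1.10 and Aldh1a7 at -0.82, while Rarg, Rara, Crabp2 and Aldh1a3 were at 2.15, 1.92, 1.79 and 1.28. Over all settings Aldh1a2 ran from -4.62 to -0.71, Stra6 from -2.78 to -0.31 and Aldh1a7 from -4.10 to -0.03. Aldh1a1 changed sign and ran from -3.32 to 0.97, with 0.18 under spike-in scaling and the highest value without scaling. Without replicates these differences could not be tested. Between the treated skins, the back treated array was above the tail treated array by 2.53 for Aldh1a3 and 1.49 for Aldh1a7, and below it by 1.17 for Stra6.

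**Figure D3:**
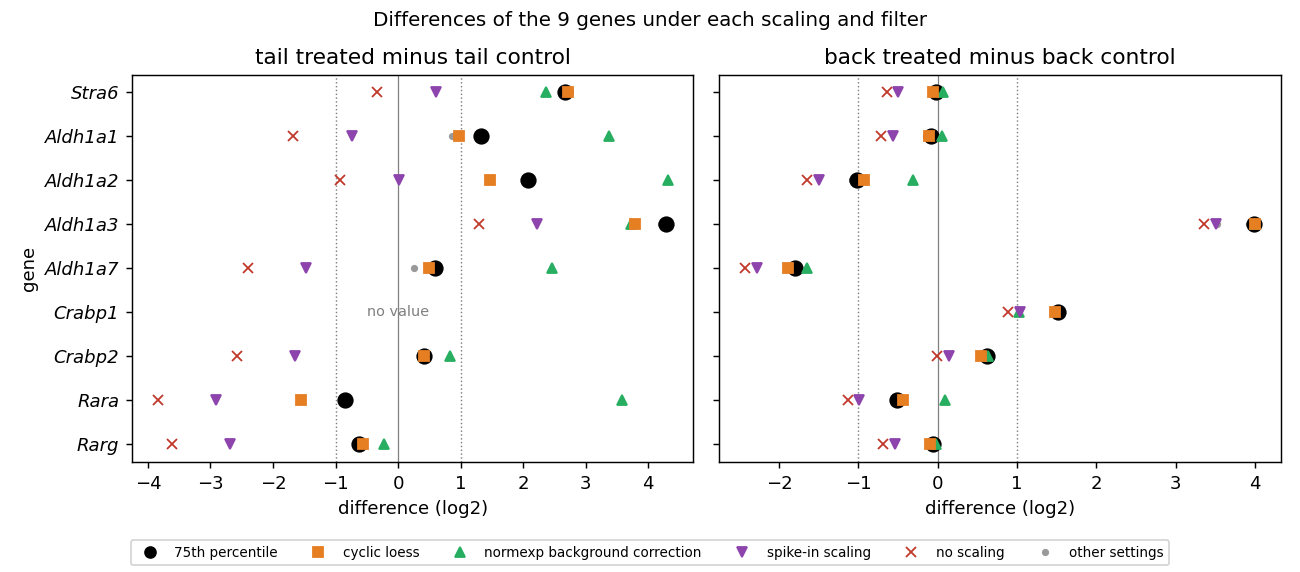
Differences of the 9 genes in the tail (left) and the back (right) on the log2 scale under each scaling and filter, 1 point per setting. Aldh1a3 lies beyond 2-fold at every setting, from 1.29 to 4.29 in the tail and from 3.36 to 4.00 in the back. In the tail most other genes change side between normexp background correction and no scaling.

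The patterns most like each gene were found among the 11271 genes measured on all 4 arrays, by the root mean square difference between levels centred on each gene's mean. For Aldh1a3 these were Gsta4 at 0.436, the complement component C3 at 0.555, the clotting factor subunit F13a1 at 0.595, the myosin light chain Myl1 at 0.781 and Styk1 at 0.781. These distances are on the log2 scale, and the levels of Aldh1a3 span 6.82. For the other genes the nearest were far closer. They were Nt5c1b and Ankrd63 for Stra6, Slc17a6 and Csnk1e for Aldh1a1, Shc3 and Hsd17b2 for Aldh1a2, and Isg15 for Aldh1a7. Rnpep and Tesk1 were nearest to Crabp2, Atp6v1c1 and Dcaf10 to Rara, and Anxa7 and Hdgfl3 to Rarg. The distance to the nearest gene ran from 0.0236 for Crabp2 to 0.145 for Aldh1a7. With 4 arrays such likeness is weakly defined.

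Other genes of the pathway were read from 7 lists of 106 genes, of which 101 were on the array. In the tail 28 of 82 with a value were higher and 7 were lower. Their median was 0.41. After cyclic loess the counts were 17 and 11 and the median -0.02. In the back 16 of 90 were higher, 17 were lower and the median was -0.10. Of all genes with a value, 27.2% were higher and 6.55% lower in the tail, and 13.6% and 12.6% in the back. These shares stand beside the counts of each list below as well.

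Genes of retinol uptake, carriage and storage were higher in 8 of 12 cases in the tail and lower in 1, and after cyclic loess 5 were higher and 1 lower. The shares over all genes in the tail were 27.2% higher and 6.55% lower. Lrat, which esterifies retinol for storage, was 2.50 higher, the cellular retinol binding protein Rbp2 1.47 and the blood carrier Rbp4 1.94. The lipoprotein receptor Scarb1 was 1.62 higher, the receptor Stra6l 1.26, lipoprotein lipase Lpl 1.23 and the carotenoid oxygenase Bco2 1.11. The lipase Lipe differed by -1.08. In the back 3 of 13 were higher and 4 lower. Scarb1 and Lpl were 1.64 and 1.28 higher there. Rbp7 differed by -2.16, and the carotene-cleaving enzyme Bco1 was at least 4.58-fold lower, Rbp4 at least 2.75-fold and Bco2 at least 2.05-fold. Lrat differed by -0.48 in the back.

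The oxidoreductases that convert retinol and retinal were lower in 8 of 23 cases in the back and higher in 3, while in the tail 6 of 19 were higher and 1 was lower. After cyclic loess the tail counts were 2 and 2. The shares over all genes were 12.6% lower and 13.6% higher in the back, and 6.55% lower and 27.2% higher in the tail. In the back the alcohol dehydrogenase Adh1 differed by -2.43, Rdh13 by -2.02, Sdr16c5 and Sdr16c6 by -1.97 and -1.46, and Rdh9, Dhrs9 and Rdh1 by -1.63, -1.45 and -1.45. Rdh10, which makes most of the retinal of the embryo, differed by -1.21. The aldo-keto reductases Akr1b8 and Akr1b3 were 2.97 and 1.18 higher there and Adh5 1.43. In the tail Rdh19, Rdh9, Adh4, Rdh16, Rdh16f2 and Adh5 were higher by 1.68, 1.44, 1.34, 1.32, 1.11 and 1.06, and Dhrs9 differed by -1.08. Adh1, Sdr16c5 and Sdr16c6 were saturated on the tail control array and had no value in the tail.

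Of 15 other aldehyde dehydrogenases, 4 were higher and 1 lower in the tail, and 5 higher and 3 lower in the back. Aldh8a1, which acts on 9-cis-retinal, was 1.76 higher in the tail and differed by -0.59 in the back. Aldh3b1 and the folate enzyme Aldh1l1 were higher at both sites, by 1.40 and 1.08 in the tail and 1.51 and 1.13 in the back. Aldh5a1 was 1.49 higher in the tail and differed by -1.06 in the back. The folate enzyme Aldh1l2 was 2.75 higher in the back, Aldh18a1 1.78 and Aldh7a1 1.27, while Aldh3a1 and Aldh2 differed by -1.20 and -1.09. Aldh1b1 differed by -1.34 in the tail. None of these enzymes was as far from 0 at either site as Aldh1a3.

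Of the enzymes that break retinoic acid down, Cyp26b1 was 1.35 higher in the tail and differed by -0.98 in the back. Cyp26a1, whose promoter with the direct repeat is printed above, had signals of 15.7 in treated and 76.6 in control tail and was 0.71 higher after scaling. In the back it was at least 2.10-fold lower. Among 15 other receptors and partners with a value in the tail, Rxrg was 1.09 higher, and Nr2c1, the coactivator Ep300 and Nr2c2 differed by -1.17, -1.13 and -1.05. After cyclic loess none was higher and 6 were lower in the tail. In the back Nr2c1 was 1.41 higher and none of 16 was lower. Rxra, the retinoid X receptor of the epidermis, was saturated on the tail control array and differed by 0.50 in the back. Rarb, the other gene with the repeat in its promoter, differed by 0.54 in the tail. In the back its signals were 13.0 in treated and 29.7 in control skin, where the treated one was not well above background. Among fatty acid binding proteins, kin of the Crabp genes, Fabp9, Fabp4, Fabp7 and Fabp3 were 2.30, 2.20, 1.65 and 1.32 higher in the tail, and Fabp6 was at least 2.14-fold lower in the back.

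Of 18 genes known to respond to retinoic acid with a value in the tail, 7 were higher and 1 was lower. The median was 0.62 and, after cyclic loess, -0.02. In the back 5 of 21 were higher, 1 was lower and the median was -0.10. The shares over all genes were 27.2% higher and 6.55% lower in the tail, and 13.6% and 12.6% in the back. Transglutaminase Tgm2 and the chemoattractant Rarres2 were higher at both sites, by 2.59 and 1.76 in the tail and 2.81 and 2.37 in the back. In the tail Meis1 was 1.79 higher and the growth factor Hbegf differed by -1.14. The mucosal keratin Krt4 was at least 8.66-fold higher there after scaling, but its signals before scaling were 24.2 in treated and 21.3 in control tail. The control signal was not well above background, where the lowest such signal was 22.3. The Krt4 value thus rests on the scaling for the brightness of the tail control array. Lrat, Cyp26b1 and Cyp26a1 are also in this list.

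**Figure D4:**
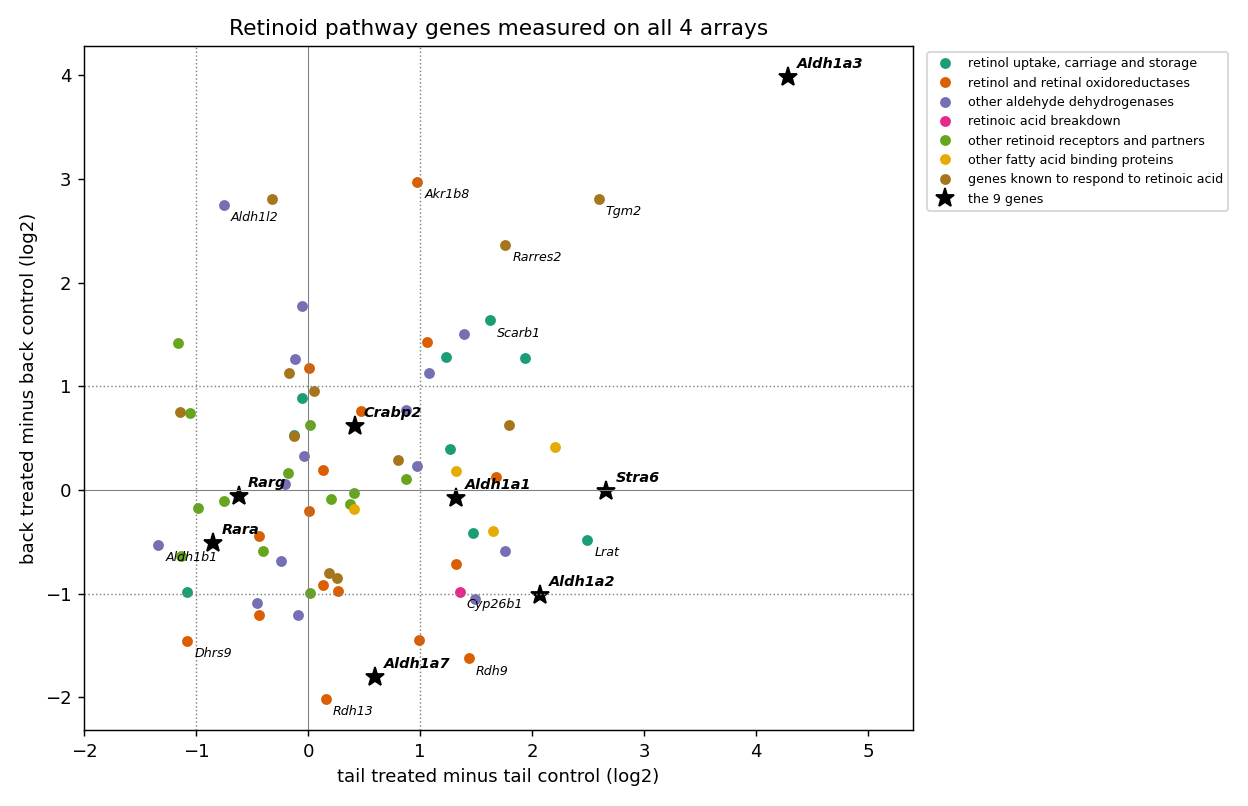
Back difference against tail difference, both on the log2 scale, for the 69 pathway genes and 8 of the 9 genes measured in both comparisons. Colours give the first list that holds a gene, stars the genes of the group, and dotted lines 2-fold. Aldh1a3 lies alone at the upper right, at 4.29 and 3.98.

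Markers of other cells moved in the same arrays. Of all genes with a value, 27.2% were higher and 6.55% lower in the tail, and 13.6% and 12.6% in the back. After cyclic loess fewer tail markers were called higher in several lists and more in none. In the tail 3 endothelial, 3 sebocyte, 4 adipocyte, 4 skeletal muscle and 0 suprabasal keratinocyte markers were then higher. So were 4 neutrophil, 5 fibroblast, 2 hair follicle, 1 melanocyte and 1 mast cell markers. Macrophage and T cell counts stayed at 3 and 2. Neutrophil markers were higher in all 5 cases with a value in the tail and 4 of 5 in the back, and 3 of the values were bounds at each site. The summed scaled level of these markers was 144 in treated and 8.56 in control tail, and 109 in treated and 42.6 in control back, and Camp was not well above background on any array. Of these sums 99.2% to 99.9% came from S100a8 and S100a9, which keratinocytes under stress also express. S100a8 was saturated on both treated arrays, and S100a9 on the treated tail and control back arrays, so the sums there are capped. S100a9 had no value in the back. Without S100a8 and S100a9 the sums were 0.162 in treated and 0.038 in control tail, and 0.854 in treated and 0.0545 in control back. Macrophage markers were higher in 3 of 6 and 3 of 7 cases, with sums of 0.88 and 0.39 in treated and control tail and 7.33 and 2.75 in treated and control back. Endothelial markers were higher in 5 of 5 and 4 of 5 cases, with sums of 0.44 and 0.10 in treated and control tail and 0.51 and 0.13 in treated and control back, and Kdr and Tek were not well above background on any array. Skeletal muscle markers were higher in 6 of 8 and 4 of 7 cases, adipocyte markers in 6 of 6 and 1 of 6, sebocyte markers in 6 of 9 and 4 of 8, and fibroblast markers in 6 of 9 and 3 of 8 with 1 lower at each site. Dermal papilla markers were higher in 2 of 5 cases, with 1 lower, and 2 of 4, melanocyte markers in 2 of 4 at both sites, and mast cell markers in 2 of 5 and 2 of 6, with 2 lower in the back. T cell markers were higher in 2 of 6 cases in the tail and lower in 3 of 6 in the back. In the back, 6 of 8 markers of Langerhans and dendritic cells were lower, with sums of 15.8 in treated and 44.1 in control skin, and so were 6 of 10 hair follicle markers. In the tail 3 of 4 hair follicle markers with a value were higher, and 1 of 8 Langerhans and dendritic cell markers was higher and 1 lower. Suprabasal keratinocyte markers were higher in 2 of 3 cases in the tail and lower in 3 of 4 in the back, while 1 of 2 basal ones was lower in the tail and 2 of 4 were higher in the back. The part of these cells in the values of the 9 genes was not tested.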

How the data were processed

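Labelled RNA (200 ng of total RNA) was hybridised to 4 Agilent arrays in 1 colour, and titles gave the groups. The processed signals deposited by the authors are intensities per spot, per the file headers, corrected for background by Feature Extraction 10.5.1.1 with no normalization between arrays; the submitters' processing notes name version 10.7. Raw median intensities are deposited beside it. The authors' table of log2 values, whose making is not stated, is centred per probe. Its differences between arrays equalled those of the processed signal up to a constant within 0.001 for at least 99.9% of probes, so its scale and direction are known. Its column medians were 0.10 and -0.28 in treated and control tail, and 0.08 and -0.03 in treated and control back.

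Values were log2 processed signals less the 75th percentile of the array (control probes left out), without outlier spots. Of 41174 probes, 24375 (59.2%) matched 1 symbol through a RefSeq accession in a table of assembly GRCm38.p6. The array design names mm8, so only the promoters carry coordinates. The brightest probe stood for a gene, and probes of a gene without such an accession were not used here. A value counts as measured if both spots exceeded background clearly and neither was saturated. With 1 array dim, its signal was raised to at least the lowest clearly detected one, and with 1 saturated the saturated value, which gives a bound written as "at least". A gene had no value where such a bound did not point away from 0, or where it was dim or saturated on both arrays. The number of arrays limits the precision. Promoter sequences are RefSeq's.

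The 9 genes, the 7 pathway lists and the 15 marker lists were chosen with earlier results of these data known. Pathway genes are named where they differed 2-fold or more in the tail or the back, and some that did are counted but not reported by name here. The 10 alternatives set beforehand and the unscaled signal, added after seeing the data, are in the closing section. Tools were Python 3.11.15, R 4.3.3 and limma 3.58.1.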

Additional observations from a re-analysis of the deposited data

Results flagged for a closer look

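Aldh1a2 was measured on all 4 arrays and was called in opposite directions at both sites. Its difference was 2.07 in the tail and -1.01 in the back, and the back response minus the tail response was -3.08. The difference between the sites was not tested, since each group is 1 array, and the light doses differ. With spike-in scaling the tail difference was 0.0087, which ends the tail call, and after normexp background correction it was 4.31. The back value lies just past 2-fold, and it was -0.92 after cyclic loess and -0.31 after normexp. The difference between the sites ran from -4.62 to -0.71 over the settings.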

How the results depend on the processing

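Each group is 1 array, so neither leaving out a replicate nor a paired analysis was possible. In the tail the median of measured genes moved by -2.06 with spike-in scaling, -0.36 with cyclic loess, -0.24 with quantile normalization, 0.34 with normexp and 0.23 without a filter on dim probes, and the share of higher among called genes ran from 80.6% to 1.28%, 54.0%, 57.8%, 91.5% and 87.0% in the same order. In the back it ran from 51.8% to 19.8% with spike-in scaling, and between untreated skins from 61.4% to 23.4%, 48.0% and 47.3% with spike-in scaling, cyclic loess and quantile normalization. Aldh1a3 in the tail and the back and Aldh1a7 in the back kept their direction and stayed past 2-fold at every setting run, the unscaled signal included.

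For the 9 genes in the tail, 4 were higher and 0 lower. The higher count was 1 with spike-in scaling, 1 without scaling and 2 with a signal of at least 200, and the lower count was 1 with quantile normalization, 1 with cyclic loess, 4 with spike-in scaling and 5 without scaling. Aldh1a1 in the tail turned to -0.74 with spike-in scaling. Without scaling, Aldh1a1, Aldh1a2 and Stra6 in the tail turned to -1.68, -0.93 and -0.33, and Stra6 and Aldh1a1 between untreated skins to -0.45 and -0.0196. In the back 2 were higher and 2 lower. The higher count was 1 with a signal of at least 200 and 1 without scaling, and the lower count was 1 with normexp, 1 with cyclic loess and 1 with a signal of at least 200. Between untreated skins 6 were higher and 0 lower, against 1 higher and 3 lower without scaling and 1 lower with spike-in scaling.

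For the pathway lists in the tail, 28 were higher and 7 lower. These became 18 and 12 with quantile normalization, 17 and 11 with cyclic loess, 1 and 60 with spike-in scaling, 13 and 2 with a signal of at least 200, and 0 and 87 without scaling, and the lower count was 3 with normexp. In the back 16 were higher and 17 lower, which became 8 and 33 with spike-in scaling and 7 and 37 without scaling, and the lower count was 10 with a signal of at least 200. Between untreated skins 23 were higher and 19 lower, which became 6 and 36 with spike-in scaling and 0 and 65 without scaling. Among all genes in the tail, 3492 were higher and 842 lower, with ranges of 37 to 6243 and 410 to 13531 over the settings. In the back these were 1824 and 1698, with ranges of 672 to 2072 and 1067 to 4323, and between untreated skins 3506 and 2203, with ranges of 406 to 5926 and 1436 to 9931. Fewer genes are tested with a minimum signal, and the cause of the other changes was not tested.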
